A study of Homo sapiens with 8 samples.

Results

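The transcripts of 40 genes of the endoplasmic reticulum were followed by RNA sequencing in ES2 cells, an established human ovarian cancer line, with KDM1A knocked out or not; KDM1A encodes a lysine-specific demethylase of histone H3. The set was fixed by name, and it was chosen with earlier results of these data known. It holds chaperones and their co-chaperones, enzymes of disulfide bonding, genes of endoplasmic reticulum-associated degradation, the sensors of the unfolded protein response, parts of the translocation channel and of vesicle export, secreted folding factors and the membrane-shaping protein REEP6. All 40 symbols were found among the 23228 genes of the count tables, and all 40 were among the 13498 genes with enough counts to test. The 4 groups, with 2 libraries each, were knockout cells with LY500307, knockout cells with vehicle, control cells with LY500307 and control cells with vehicle. LY500307 is an agonist of estrogen receptor beta and was given at 5 µM, and all cells were harvested 48 h after drug or vehicle. All 4 groups were grown in McCoy's medium with serum. No source used here gives the site of the edit in KDM1A or says if the knockout line is 1 clone. The labels do not say that duplicates were separate cultures. The p-values therefore measure only how far these libraries spread, which may be technical.

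Proteins destined for secretion or for membranes enter the endoplasmic reticulum through the SEC61 channel, where chaperones, sugar-binding lectins and disulfide isomerases fold them. When unfolded proteins accumulate, the sensors ATF6, IRE1 (encoded by ERN1) and PERK (encoded by EIF2AK3) start the unfolded protein response. ATF6 is cleaved to release a transcription factor, IRE1 splices the XBP1 transcript, and PERK slows translation while favoring that of ATF4. Their targets include chaperone genes and genes that return misfolded proteins to the cytosol for destruction.

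Many of these genes carry the stress response elements through which ATF6 and XBP1 act, and the elements found here are shown because genes that hold the same element did not all change in the same direction. Promoters (the 250 bases before each start site, RefSeq, GRCh38.p14) were matched for 36 members, and those of PDIA3, DERL1, DERL3 and SEC24D were not among the sequences. The element ERSE, searched on both strands as CCAAT and CCACG with 9 bases of any kind between them, was in 7 of the 36 (19.4%) in 0.074% of all 35116 promoters and in a promoter of 0.0916% of all 27305 genes. The shorter ERSE-II, ATTGG and CCACG with 1 base between them, was in 3 of the 36 (8.33%) in 0.0513% of all promoters and in 0.0659% of genes. Each sequence below is written 5′ to 3′ on the gene's strand, and capitals mark the element, which reads as its reverse complement where it lies on the other strand.
HSPA5, chr9:125241371-125241429, minus strand: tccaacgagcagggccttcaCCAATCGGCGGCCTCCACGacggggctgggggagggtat
HSP90B1, chr12:103930196-103930254, plus strand: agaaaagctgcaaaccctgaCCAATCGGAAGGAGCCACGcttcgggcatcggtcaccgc
CALR, chr19:12938364-12938422, plus strand: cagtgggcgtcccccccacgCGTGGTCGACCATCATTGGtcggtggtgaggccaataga
CANX, chr5:179698758-179698816, plus strand: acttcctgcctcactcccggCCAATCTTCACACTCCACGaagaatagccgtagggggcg
PDIA6, chr2:10812833-10812891, minus strand: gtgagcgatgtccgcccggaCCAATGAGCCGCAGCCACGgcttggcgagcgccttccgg
ERO1LB, chr1:236282163-236282208, minus strand: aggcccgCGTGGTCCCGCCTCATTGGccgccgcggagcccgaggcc
CRELD2, chr22:49918534-49918592, plus strand: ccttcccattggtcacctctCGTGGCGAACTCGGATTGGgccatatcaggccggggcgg
HERPUD1 (ERSE-II), chr16:56932005-56932055, plus strand: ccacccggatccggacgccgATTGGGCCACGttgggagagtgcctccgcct
HYOU1 (ERSE-II), chr11:119057360-119057410, minus strand: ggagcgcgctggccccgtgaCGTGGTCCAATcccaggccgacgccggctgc
SDF2L1 (ERSE-II), chr22:21642094-21642144, plus strand: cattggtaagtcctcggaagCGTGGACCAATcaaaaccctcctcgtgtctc
HSP90B1 held a second ERSE and HYOU1 a second ERSE-II nearer to the start site. The XBP1-type element UPRE (TGACGTGG) was in HYOU1, where it overlaps the ERSE-II shown, and in DNAJC10, or 5.56% of the 36 members against 0.612% of all promoters and 0.78% of genes. The cyclic AMP element CRE (TGACGTCA) was in CREB3L2 alone, or 2.78% of members against 1.65% of promoters and 2.03% of genes. The estrogen response element, GGTCA and TGACC with 3 bases between them, was in 0 of the 36 members, in 0.0399% of all promoters and in 0.0513% of genes. A match describes the letters of the window and does not show that a factor bound there.

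Gene totals lay between 24348937 and 30131097 counts per library. The 40 genes together took 1.15% and 1.14% of gene counts in knockout cells with LY500307, 1.09% and 1.07% in knockout cells with vehicle, 1.29% and 1.29% in control cells with LY500307, and 1.29% and 1.28% in control cells with vehicle. KDM1A had 72.0 and 71.6 CPM (gene counts scaled to library size with TMM, the trimmed mean of M values) in knockout cells with LY500307, 75.6 and 77.8 CPM in knockout cells with vehicle, 238 and 241 CPM in control cells with LY500307, and 220.0 and 219 CPM in control cells with vehicle, so the transcript was lower in every library labelled knockout, with log2 fold changes of -1.52 with vehicle and -1.74 with LY500307 (SE 0.05 each). ESR2, which encodes estrogen receptor beta, had 1 to 7 counts per library. Of 12 markers of ovarian carcinoma epithelium, 9 reached 1 CPM in a library, and NAPSA and MUC16 were among those that did not. The 12 summed to 514 to 520.0 CPM in knockout cells with LY500307, 542 to 550.3 in knockout cells with vehicle, 729 to 740 in control cells with LY500307 and 618 to 624 in control cells with vehicle. Of 10 blood cell markers 8 stayed under 1 CPM throughout, with CD3E and HBB at 0, and the list summed to 63.0 to 75.6 CPM in knockout cells with LY500307, 63.7 to 64.3 in knockout cells with vehicle, 111 to 112 in control cells with LY500307 and 96.9 to 100.5 in control cells with vehicle. Of 8 endothelial markers 6 stayed under 1 CPM, with CLDN5 at 0, and their sums were 26.7 to 31.9 CPM in knockout cells with LY500307, 32.9 in knockout cells with vehicle, 83.1 to 88.6 in control cells with LY500307 and 103 to 105 in control cells with vehicle. Of 10 mesothelial and fibroblast markers 6 stayed under 1 CPM, and the sums were 47.8 to 48.7 CPM in knockout cells with LY500307, 39.6 to 41.7 in knockout cells with vehicle, 95.2 to 97.5 in control cells with LY500307 and 72.8 to 76.5 in control cells with vehicle. Within each treatment these sums were lower in knockout cells, but single markers went both ways. Markers that reached 1 CPM in a library were CD68 and LYZ for blood and CDH5 and KDR for endothelium. For mesothelium and fibroblasts they were PDGFRA, PDGFRB, LUM and FAP. With vehicle, 3 of 9 tested epithelial markers were higher and 4 lower in knockout cells (edgeR adjusted p under 0.05). The counts were 1 and 1 of 2 blood, 1 and 1 of 3 endothelial, and 3 and 2 of 5 mesothelial and fibroblast markers. Of all genes tested 30.7% were higher and 33.3% lower. The part of these markers in the results below was not tested. In RNA from whole cultures, fewer cells of a type and less RNA per cell cannot be told apart.

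Knockout and control cells were first compared within each treatment. With vehicle, the disulfide isomerases PDIA4, PDIA3, P4HB and PDIA6, the chaperone HSP90B1, the lectins CALR and CANX and the transcription factor CREB3L2 fell in knockout cells. In the same comparison the degradation factor HERPUD1, the sensors ATF6 and ERN1, the co-chaperone DNAJB9 and the oxidase ERO1LB rose. HERPUD1 had the largest rise, at 2.06-fold, and PDIA4 the largest fall, with a fold change of 0.522. By the quasi-likelihood test of edgeR, with p adjusted by Benjamini-Hochberg across every gene tested and called under 0.05, 12 of 40 members were higher and 17 lower in knockout cells with vehicle. Much of the transcriptome differed between knockout and control cells. Of all genes tested 30.7% were higher and 33.3% lower, against 30% and 42.5% of the members. With LY500307 the counts were again 12 higher and 17 lower, beside 32.6% and 33.6% of all genes. The median log2 fold change of the members was -0.10 with vehicle, beside -0.01 over all genes, and -0.09 with LY500307, also beside -0.01. Members did not move further than other genes, with a median absolute log2 fold change of 0.27 beside 0.35 over all genes with vehicle and 0.26 beside 0.35 with LY500307. The histograms of members and of all genes overlap accordingly.

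**Figure D1:**
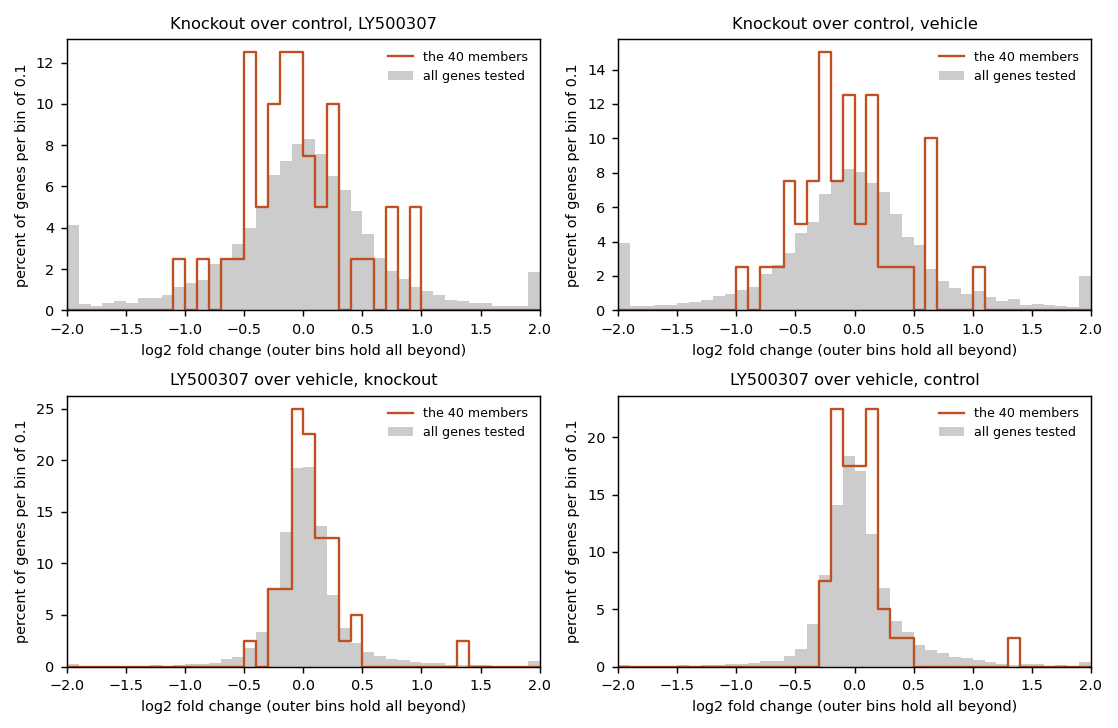
Percent of genes per bin of log2 fold change (horizontal axis, bins of 0.1, outer bins hold all values beyond) for the 40 members (orange line) and all 13498 genes tested (gray), in 4 comparisons. The members spread on both sides of 0 in each panel, with medians of -0.10 and -0.09 for knockout over control and of 0.03 and 0.03 for LY500307 over vehicle.

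The 2 knockout comparisons share no library, although they use the same knockout and control cells. Of the 29 members called in each, 27 (93.1% of either list) were called in both in the same direction, 11 higher and 16 lower, and 0 in opposite directions. Over all genes tested the shared calls in the same direction were 86.0% of those with vehicle and 83.2% of those with LY500307. The remaining calls were EIF2AK3 and CRELD2 with vehicle, and SEC24D and ERO1L with LY500307.

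**Figure D2:**
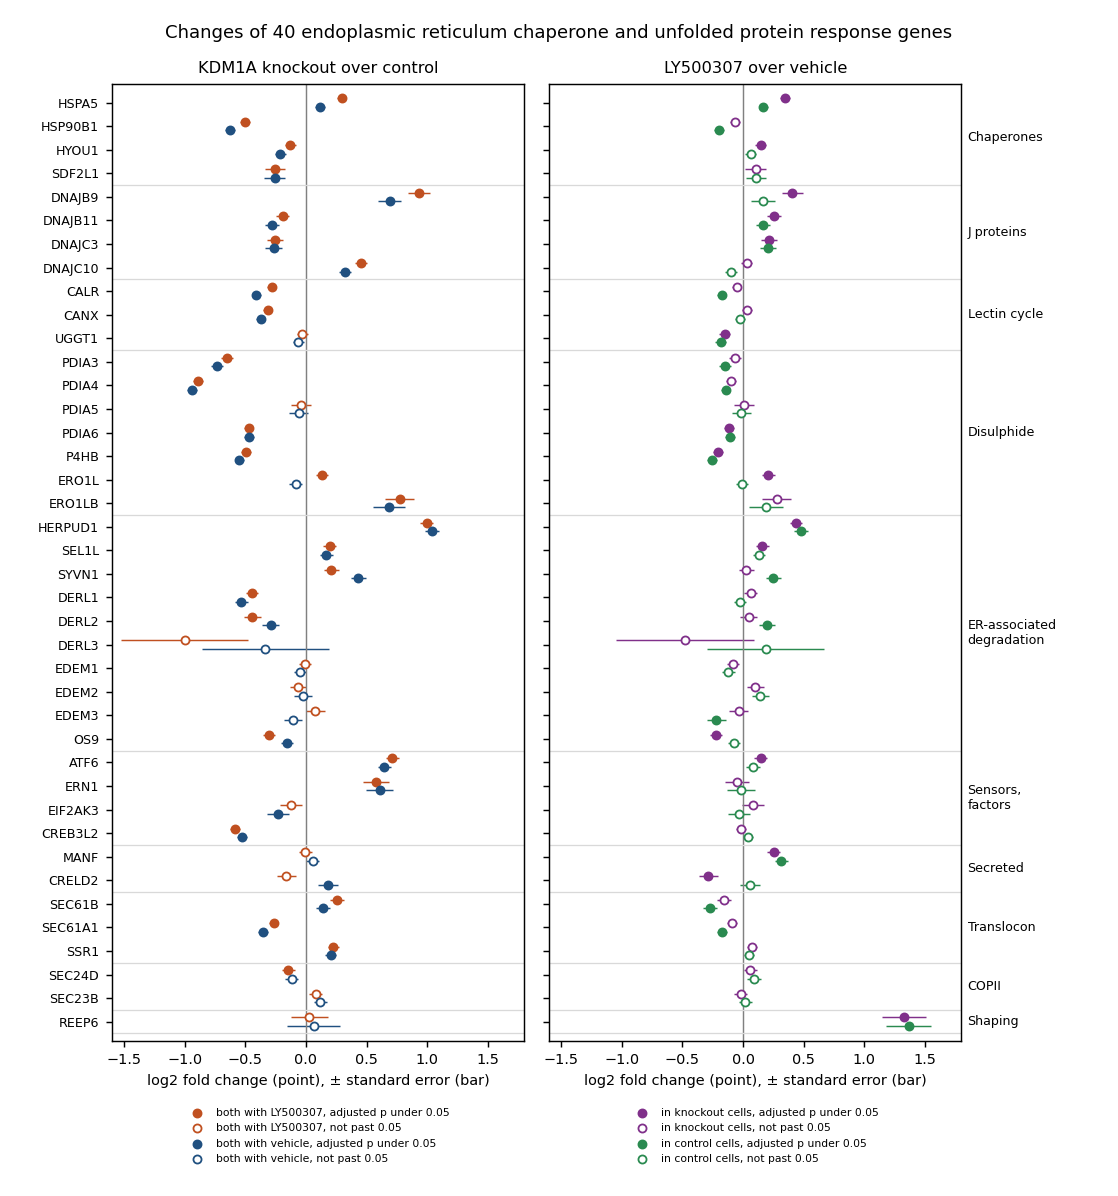
Log2 fold change (points) with its standard error (bars) of each of the 40 members, grouped by role, for knockout over control (left) and LY500307 over vehicle (right); filled points are past an adjusted p of 0.05 by edgeR. The paired points of knockout lie close together for most members, from 1.04 and 1.00 for HERPUD1 to -0.94 and -0.89 for PDIA4, and REEP6 stands apart on the right at 1.36 and 1.33.

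The 3 classical sensors did not move together. ATF6 (GRCh37 chr1:161736088-161947364), the sensor that becomes a transcription factor, had 176 and 172 CPM in knockout cells with LY500307, 155 and 159 CPM in knockout cells with vehicle, 105 and 107 CPM in control cells with LY500307, and 105 and 95.3 CPM in control cells with vehicle. Both knockout groups lay above both control groups without overlap. The log2 fold change for knockout was 0.65 (SE 0.05, edgeR adjusted p = 8.47e-13) with vehicle and 0.71 (SE 0.05, adjusted p = 4.20e-14) with LY500307. ERN1 (chr17:62116440-62208179), which encodes IRE1, had 14.6 and 16.1 CPM in knockout cells with LY500307, 15.7 and 16.1 CPM in knockout cells with vehicle, 9.61 and 11.0 CPM in control cells with LY500307, and 10.4 and 10.5 CPM in control cells with vehicle. It too was higher in every knockout library, by 0.61 (SE 0.11, edgeR adjusted p = 1.04e-05) with vehicle and 0.58 (SE 0.11, adjusted p = 1.59e-05) with LY500307. EIF2AK3 (chr2:88856259-88991036), which encodes PERK, had 18.0 and 17.4 CPM in knockout cells with LY500307, 17.2 and 16.3 CPM in knockout cells with vehicle, 19.0 and 19.5 CPM in control cells with LY500307, and 19.9 and 19.5 CPM in control cells with vehicle. All knockout libraries were below all control libraries by a small margin. The change was -0.23 with vehicle (SE 0.09, edgeR adjusted p = 0.0293) and -0.12 with LY500307 (SE 0.09, adjusted p = 0.238). Its call with vehicle was lost without control vehicle replicate 1 (-0.22, adjusted p = 0.114) or 2 (-0.25, 0.0699), without knockout vehicle replicate 2 (-0.19, 0.167), with library totals (-0.18, 0.0808) and in DESeq2 (-0.22, 0.109). CREB3L2 (chr7:137559725-137686832), a membrane-bound transcription factor related to ATF6 that acts on secretory cargo genes, had 386 and 390.3 CPM in knockout cells with LY500307, 392 and 395 CPM in knockout cells with vehicle, 572 and 591 CPM in control cells with LY500307, and 573 and 559 CPM in control cells with vehicle. All 4 knockout libraries lay below all 4 control libraries, and the gene fell in knockout cells by 0.52 with vehicle (SE 0.04, edgeR adjusted p = 2.22e-13) and by 0.58 with LY500307 (SE 0.04, adjusted p = 1.13e-14).

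The major chaperones of the lumen split as well. HSPA5 (chr9:127997132-128003661) encodes BiP, the chief Hsp70 of the compartment and a regulator of all 3 sensors. It had 1621 and 1541 CPM in knockout cells with LY500307, 1241 and 1248 CPM in knockout cells with vehicle, 1273 and 1303 CPM in control cells with LY500307, and 1148 and 1149 CPM in control cells with vehicle. Within each treatment both knockout libraries were above both control libraries, and the gap was wider with LY500307. The log2 fold change was 0.12 with vehicle (SE 0.04, edgeR adjusted p = 0.00764) and 0.30 with LY500307 (SE 0.04, adjusted p = 1.92e-08). Beside the median of its arm, 9q (0.10 with vehicle and 0.13 with LY500307), the change of HSPA5 was 0.01 and 0.17. Its vehicle call was lost with arm medians removed (edgeR adjusted p = 0.769), as given below. HSP90B1 (chr12:104323885-104347709), the Hsp90 of the compartment, known as GRP94, had 1058 and 989.7 CPM in knockout cells with LY500307, 1111 and 1032 CPM in knockout cells with vehicle, 1454 and 1438 CPM in control cells with LY500307, and 1702 and 1612 CPM in control cells with vehicle. All knockout libraries were below all control libraries, the reverse of HSPA5 within each treatment, with changes of -0.63 with vehicle (SE 0.04, edgeR adjusted p = 2.64e-15) and -0.50 with LY500307 (SE 0.04, adjusted p = 1.15e-12). HYOU1, a large Hsp70 relative that acts on HSPA5 as an exchange factor, changed by -0.21 and -0.13, and SDF2L1, a partner of the HSPA5 cycle, by -0.26 and -0.26 in the vehicle and LY500307 comparisons. The HYOU1 call with LY500307 was lost without control LY500307 replicate 2 (-0.10, edgeR adjusted p = 0.141) and with library totals (-0.10, 0.0630). The SDF2L1 calls were lost without control vehicle replicate 2 (-0.16, 0.185) or knockout vehicle replicate 1 (-0.18, 0.146) and, with LY500307, without control replicate 2 (-0.23, 0.0549) or knockout replicate 1 (-0.21, 0.0645).

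Among the J proteins, which start the ATP cycle of HSPA5, 2 rose and 2 fell in each knockout comparison, beside 30.7% and 33.3% of all genes with vehicle and 32.6% and 33.6% with LY500307. DNAJB9 (chr7:108210311-108215294), a J protein that binds IRE1 and is an XBP1 target, had 29.6 and 28.7 CPM in knockout cells with LY500307, 22.0 and 22.0 CPM in knockout cells with vehicle, 15.7 and 14.9 CPM in control cells with LY500307, and 12.7 and 14.5 CPM in control cells with vehicle. Its knockout libraries were all above its control libraries, and it rose by 0.69 with vehicle (SE 0.10, edgeR adjusted p = 1.02e-07) and by 0.93 with LY500307 (SE 0.09, adjusted p = 3.39e-11). DNAJC10 (chr2:183580982-183659191), a J protein with reductase activity in degradation, had 297 and 291 CPM in knockout cells with LY500307, 296 and 282 CPM in knockout cells with vehicle, 224 and 206 CPM in control cells with LY500307, and 234 and 227 CPM in control cells with vehicle. The groups did not overlap, and the changes were 0.32 (SE 0.05, edgeR adjusted p = 3.25e-07) and 0.45 (SE 0.05, adjusted p = 2.61e-10). DNAJB11, a soluble J protein, fell by 0.28 and by 0.19, and DNAJC3, an inhibitor of PERK and a co-chaperone, fell by 0.27 and by 0.26 in the vehicle and LY500307 comparisons. With vehicle, DNAJC10 and DNAJC3 lost their calls and changed sign when arm medians were removed, as given below. The DNAJC3 call with LY500307 was lost without knockout LY500307 replicate 2 (-0.17, edgeR adjusted p = 0.0596).

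The largest falls were among the disulfide isomerases. PDIA4 (chr7:148700154-148725754), a multidomain isomerase found with HSPA5, had 309 and 313 CPM in knockout cells with LY500307, 336 and 329.9 CPM in knockout cells with vehicle, 573 and 579 CPM in control cells with LY500307, and 642 and 632 CPM in control cells with vehicle. Every knockout library was far below every control library, with log2 fold changes of -0.94 with vehicle (SE 0.04, edgeR adjusted p = 1.93e-20) and -0.89 with LY500307 (SE 0.04, adjusted p = 8.36e-20). PDIA3 (chr15:44038592-44065477), the isomerase that partners the lectins, had 268 and 247 CPM in knockout cells with LY500307, 285 and 256 CPM in knockout cells with vehicle, 409 and 400.4 CPM in control cells with LY500307, and 456 and 440.3 CPM in control cells with vehicle. No knockout library reached the control libraries, and it fell by 0.73 with vehicle (SE 0.05, edgeR adjusted p = 3.17e-15) and by 0.65 with LY500307 (SE 0.05, adjusted p = 6.07e-14). P4HB (chr17:79801035-79818732), the founding isomerase and a subunit of collagen prolyl hydroxylase, had 666 and 713 CPM in knockout cells with LY500307, 802 and 788 CPM in knockout cells with vehicle, 960.5 and 986 CPM in control cells with LY500307, and 1137 and 1186 CPM in control cells with vehicle. The 4 groups formed 4 separate steps. The gene was lower in knockout cells by 0.55 with vehicle (SE 0.04, edgeR adjusted p = 5.53e-14) and by 0.50 with LY500307 (SE 0.04, adjusted p = 6.81e-13). PDIA6, an isomerase that also dampens the sensors, had 425 and 432 CPM in knockout cells with LY500307, 470.3 and 457 CPM in knockout cells with vehicle, 596 and 593 CPM in control cells with LY500307, and 644 and 639 CPM in control cells with vehicle. Again the knockout libraries were all below the control ones, and it fell by 0.47 in both comparisons (edgeR adjusted p = 2.26e-12 with vehicle and 1.67e-12 with LY500307). Up to 25.2% of its exonic length overlaps ATP6V1C2 on the opposite strand, and no source used here says whether counting used strand. The fifth isomerase, PDIA5, was at -0.06 and -0.04 and did not pass the test. Of the oxidases that recharge the isomerases, ERO1LB (also ERO1B) rose by 0.68 (SE 0.13, edgeR adjusted p = 2.91e-05) and by 0.77 (SE 0.12, adjusted p = 1.25e-06). ERO1L (also ERO1A) was at -0.08 with vehicle, which did not pass, and at 0.14 with LY500307, a call lost without control LY500307 replicate 2 (0.08, edgeR adjusted p = 0.273) or knockout LY500307 replicate 2 (0.11, 0.131).

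Of the 3 genes of the lectin cycle, which holds sugar-bearing proteins until they fold, 2 fell in each knockout comparison. Over all genes 33.3% were lower with vehicle and 33.6% with LY500307. CALR, the soluble lectin calreticulin, had 1168 and 1159 CPM in knockout cells with LY500307, 1231 and 1179.6 CPM in knockout cells with vehicle, 1414 and 1417 CPM in control cells with LY500307, and 1593 and 1609 CPM in control cells with vehicle. Knockout and control libraries did not overlap, and its change was -0.41 with vehicle (SE 0.04, edgeR adjusted p = 9.50e-12) and -0.28 with LY500307 (SE 0.04, adjusted p = 3.47e-08). CANX, the membrane lectin calnexin, fell by 0.37 and by 0.32 (adjusted p = 2.46e-10 and 9.76e-09). UGGT1, the glucosyltransferase that sends unfolded clients back to the lectins, was at -0.06 and -0.03 and did not pass.

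Of the 10 genes of endoplasmic reticulum-associated degradation, 3 rose and 3 fell in each knockout comparison (30% each way), near the 30.7% and 33.3% of all genes with vehicle and the 32.6% and 33.6% with LY500307. HERPUD1 (chr16:56966054-56978776), an organizer of the degradation complex and a stress response target, had 178 and 172 CPM in knockout cells with LY500307, 132 and 127 CPM in knockout cells with vehicle, 85.0 and 90.4 CPM in control cells with LY500307, and 61.0 and 64.7 CPM in control cells with vehicle. The libraries rose in 4 steps without overlap, and knockout cells were higher by 1.04 with vehicle (SE 0.06, edgeR adjusted p = 9.66e-18) and by 1.00 with LY500307 (SE 0.05, adjusted p = 7.81e-18). SYVN1, the ubiquitin ligase HRD1 at the heart of the complex, had 90.2 and 100.3 CPM in knockout cells with LY500307, 92.3 and 94.8 CPM in knockout cells with vehicle, 78.6 and 86.3 CPM in control cells with LY500307, and 70.8 and 67.9 CPM in control cells with vehicle. Knockout libraries were above control libraries within each treatment. Its rise was 0.43 with vehicle (SE 0.06, edgeR adjusted p = 2.48e-07) and 0.21 with LY500307 (SE 0.06, adjusted p = 0.00307), the second of which was lost without control LY500307 replicate 1 (0.14, 0.103) or knockout LY500307 replicate 2 (0.12, 0.129). SEL1L, the adaptor of SYVN1, rose by 0.17 and by 0.20. Beside the median of its arm, 14q (0.30 with vehicle and 0.32 with LY500307), SEL1L was at -0.13 and -0.12. Its calls were lost without control vehicle replicate 1 (0.15, edgeR adjusted p = 0.0614) and, with LY500307, without control replicate 2 (0.14, 0.0647). DERL1, a membrane protein of the exit channel, fell by 0.53 and by 0.44, its relative DERL2 by 0.29 and by 0.44, and the lectin OS9, which delivers clients, by 0.15 and by 0.30. Beside the median of its arm, 8q (-0.36 with vehicle and -0.30 with LY500307), the change of DERL1 was -0.17 and -0.14. Beside 17p (-0.15 in both), that of DERL2 was -0.14 and -0.29, and its vehicle call was lost with arm medians removed. The mannosidase-like EDEM1, EDEM2 and EDEM3, which mark clients for disposal, stayed between -0.11 and 0.08 and did not pass. DERL3 was near the detection limit at 0.187 to 0.642 CPM, and 77% of its exonic length overlaps SMARCB1 on the opposite strand.

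In the entry and exit machinery the members again diverged. SEC61A1, the pore subunit of the translocation channel, had 602 and 611 CPM in knockout cells with LY500307, 624 and 669 CPM in knockout cells with vehicle, 719 and 740.2 CPM in control cells with LY500307, and 817 and 831 CPM in control cells with vehicle. All knockout libraries were below all control libraries, and it fell by 0.35 with vehicle (SE 0.04, edgeR adjusted p = 3.44e-09) and by 0.27 with LY500307 (SE 0.04, adjusted p = 6.81e-07). SEC61B, the small beta subunit, had 70.1 and 67.6 CPM in knockout cells with LY500307, 75.3 and 78.0 CPM in knockout cells with vehicle, 58.6 and 56.6 CPM in control cells with LY500307, and 69.6 and 69.7 CPM in control cells with vehicle. Within each treatment the knockout libraries were above the control ones, while across treatments they overlapped. It was higher by 0.26 with LY500307 (SE 0.06, adjusted p = 0.000354). With vehicle it was at 0.14 (adjusted p = 0.0417), a call lost without any 1 of the 4 libraries compared (0.11 to 0.16, adjusted p = 0.0593 to 0.222) and in DESeq2 (0.15, 0.0536). SSR1, a subunit of the translocon-associated protein complex, rose by 0.20 and by 0.23. Of the vesicle coat genes, SEC23B was at 0.12 and 0.08 and did not pass. SEC24D was at -0.12 with vehicle, which did not pass, and at -0.15 with LY500307, a call lost without control LY500307 replicate 1 (-0.12, adjusted p = 0.119), without knockout LY500307 replicate 2 (-0.15, 0.0543) and with library totals (-0.11, 0.0610). The secreted neurotrophic factor MANF was at 0.05 and -0.01 and REEP6 at 0.06 and 0.03, none of which passed. CRELD2, a secreted isomerase-like protein, was at 0.18 with vehicle (edgeR adjusted p = 0.0498) with overlapping groups. Its call was lost without control vehicle replicate 1 (0.08, 0.501), knockout vehicle replicate 2 (0.09, 0.451), or control LY500307 replicate 1 (0.18, 0.0601) or 2 (0.18, 0.0575), and in DESeq2 (0.19, 0.105).

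Of the 7 members with an ERSE in the window, HSPA5 and ERO1LB rose in both knockout comparisons, HSP90B1, CALR, CANX and PDIA6 fell in both, and CRELD2 was called with vehicle only. Of the 3 with ERSE-II, HERPUD1 rose while HYOU1 and SDF2L1 fell. Over all genes tested 30.7% were higher and 33.3% lower with vehicle, and 32.6% and 33.6% with LY500307. The vehicle call of HSPA5 and the LY500307 call of HYOU1 were lost with arm medians removed, as given below.

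Genes of whole chromosome arms differed between knockout and control cells, so each member was also set beside the median of its arm (GENCODE release 44 positions on GRCh37). With vehicle the arm medians of the members ran from -0.39 on 13q, where DNAJC3 lies, to 0.33 on 2q, where DNAJC10 lies. Among arms that hold no member they ran from -0.92 on 18p to 0.32 on 10p. The arm median was 0.10 on 9q, beside 0.12 for HSPA5, and 0.30 on 14q, beside 0.17 for SEL1L. Some changes stood well away from their arms. The median was -0.01 on 16q beside 1.04 for HERPUD1, and 0.31 on 19p beside -0.41 for CALR. It was -0.16 on 7q beside -0.94 for PDIA4 and 0.69 for DNAJB9. For other large changes it was -0.26 on 15q beside -0.73 for PDIA3, and -0.36 on 8q beside -0.53 for DERL1. On 1q it was 0.16 beside 0.65 for ATF6 and 0.68 for ERO1LB. In an alternative chosen after seeing the data, arm medians were taken out of the fit. The vehicle calls of HSPA5 (0.01, edgeR adjusted p = 0.769), SEC61B (0.04, 0.615), CRELD2 (0.16, 0.0997), DNAJB11 (-0.08, 0.215), DERL2 (-0.14, 0.0713) and EIF2AK3 (-0.11, 0.322) were then lost. DNAJC10 (-0.0035, adjusted p = 0.959) and DNAJC3 (0.12, 0.141) changed sign and lost their calls, and SEL1L turned to -0.13 (0.0314). Under LY500307 the calls of HYOU1, DNAJB11, DNAJC3, SEC24D and SEC61B were lost, and ERO1L (-0.18, adjusted p = 0.00273) and SEL1L (-0.12, 0.0482) turned round. Among vehicle calls that held, 5 moved by over 1.5 times, to -0.72 for CALR, -0.24 for CANX, -0.47 for PDIA3, -0.17 for DERL1 and -0.15 for SEC61A1. Under LY500307, calls that held moved as far to 0.17 for HSPA5, 0.14 for DNAJC10, -0.59 for CALR, -0.18 for CANX, -0.40 for PDIA3, -0.30 for P4HB, -0.14 for DERL1, -0.29 for DERL2, -0.39 for CREB3L2 and -0.13 for SEC61A1. Members not called with vehicle were also set beside their arms. UGGT1 and ERO1L were then at -0.39, DERL3 at -0.36, EDEM1 at -0.35, EDEM3 at -0.27, and MANF and REEP6 at -0.25. SEC24D was at -0.08, EDEM2 at 0.03, SEC23B at 0.08 and PDIA5 at 0.14. The share of chromosome copy number in these differences was not tested.

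**Figure D3:**
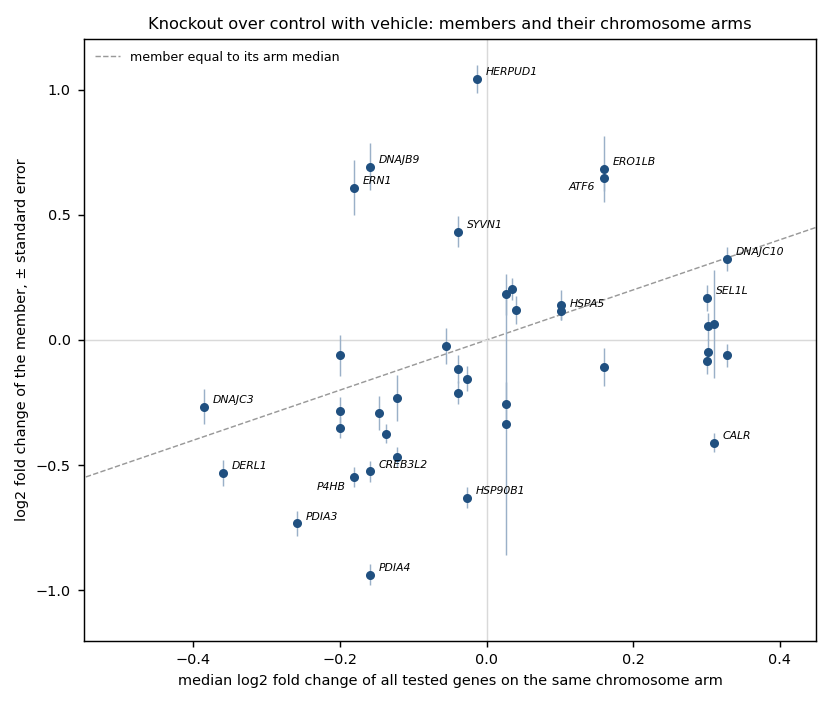
Log2 fold change of each member for knockout over control with vehicle (vertical axis, bars are standard errors) against the median of all tested genes on its chromosome arm (horizontal axis); the dashed line marks equality. HSPA5 and DNAJC10 lie near the line, while HERPUD1 at 1.04 and PDIA4 at -0.94 lie far from it.

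Related genes outside the 40 were followed by lists. Of 12 further factors of the response tested, 2 were higher and 4 lower in knockout cells with vehicle, and likewise with LY500307. These were 16.7% and 33.3%, near the 30.7% and 33.3% of all genes with vehicle for falls and below it for rises. With LY500307 the shares of all genes were 32.6% and 33.6%. CREB3L1, a relative of CREB3L2 that acts on collagen and secretory genes, had 6.45 and 7.82 CPM in knockout cells with LY500307, 5.10 and 6.86 CPM in knockout cells with vehicle, 83.7 and 89.9 CPM in control cells with LY500307, and 58.6 and 53.9 CPM in control cells with vehicle. All knockout libraries were far below all control libraries, with changes of -3.22 (SE 0.10) with vehicle and -3.60 (SE 0.10) with LY500307. WFS1, a calcium-regulating membrane protein that restrains ATF6, fell by 1.82 and by 1.86. XBP1, the target of IRE1, had 139 and 141 CPM in knockout cells with LY500307, 116.5 and 116 CPM in knockout cells with vehicle, 128 and 124 CPM in control cells with LY500307, and 109 and 110.1 CPM in control cells with vehicle. Counts per gene do not separate its spliced form. Its change was 0.09 with vehicle, which did not pass, and 0.15 with LY500307 (edgeR adjusted p = 0.00838), a call lost without control LY500307 replicate 2 or knockout LY500307 replicate 2 and with arm medians removed (adjusted p up to 0.0714).

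In the branch downstream of PERK and ATF4, 11 of 16 genes were higher and 2 lower in knockout cells with vehicle (68.8% and 12.5%, beside 30.7% and 33.3% of all genes). With LY500307, 12 were higher and 3 lower (75% and 18.8%, beside 32.6% and 33.6%). With arm medians removed, 9 were higher and 2 lower with vehicle, and 12 and 2 with LY500307. The list was chosen with earlier results of these data known, so its shares are a description only. The median log2 fold change of the list was 0.31 with vehicle and 0.53 with LY500307, beside -0.01 over all genes in both. DDIT3, the stress-induced factor CHOP, had 41.9 and 43.1 CPM in knockout cells with LY500307, 33.5 and 34.8 CPM in knockout cells with vehicle, 23.4 and 24.7 CPM in control cells with LY500307, and 18.7 and 18.6 CPM in control cells with vehicle. The 4 groups did not overlap, and it rose by 0.87 (SE 0.08, edgeR adjusted p = 2.07e-11) and by 0.82 (SE 0.08, adjusted p = 1.54e-11). The sestrin gene SESN2 rose by 1.07 and by 1.11, and the factor CEBPB rose by 0.91 with LY500307. CHAC1, a glutathione-degrading enzyme and ATF4 target, went the other way, by -3.33 and -1.85. The ATF4 transcript itself was at 0.01 with vehicle, which did not pass, and rose by 0.26 with LY500307 (adjusted p = 4.12e-06).

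The other lists changed in both directions, and paired values below are with vehicle and then with LY500307. Their counts are to be read beside the 30.7% higher and 33.3% lower of all genes with vehicle and the 32.6% and 33.6% with LY500307, and genes were named by smallest p, not by size. Of 26 further folding genes tested of 27 listed, 10 rose and 10 fell with vehicle and 8 rose and 9 fell with LY500307. The smallest p in both comparisons were those of the sulfhydryl oxidase QSOX1 (-0.83 and -0.94) and the collagen chaperone SERPINH1 (-0.58 and -0.61). Of 20 further degradation genes tested of 22 listed, 5 rose and 8 fell with vehicle and 7 rose and 8 fell with LY500307, with the smallest p for NPLOC4, a cofactor of the p97 ATPase (-0.62 and -0.66). Of 22 translocation genes, 5 rose and 8 fell with vehicle and 6 rose and 5 fell with LY500307, with TRAM2 at -0.60 and -0.78 and the translocon-associated SSR4 at 0.58 and 0.64. Of 23 N-glycosylation genes, 7 rose and 8 fell with vehicle and 3 rose and 9 fell with LY500307, with the glucosidase GANAB at -0.36 and -0.54 and MAGT1, an oligosaccharyltransferase subunit, at -0.52 and -0.59. Of 23 genes of vesicle traffic to the Golgi, 6 rose and 8 fell with vehicle and 6 rose and 7 fell with LY500307, with the smallest p for the cargo receptors TMED9 (-0.80 and -0.71) and LMAN2 (-0.67 and -0.64). Of 11 membrane-shaping genes tested of 14 listed, 2 rose and 5 fell with vehicle and 3 rose and 5 fell with LY500307, with CKAP4 at -0.86 and -0.86 and REEP5 at -0.46 and -0.41.

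The second pair of comparisons asked what LY500307 did in cells of each kind. In control cells HERPUD1, REEP6, MANF and HSPA5 rose, while P4HB, CALR, HSP90B1 and SEC61B fell. In knockout cells HERPUD1, REEP6, HSPA5, MANF, DNAJB9 and DNAJB11 rose, while P4HB and OS9 fell. Apart from REEP6, changes were small, between -0.48 and 0.48 on the log2 scale. In control cells 8 of 40 members were higher and 10 lower by edgeR's quasi-likelihood test (adjusted p under 0.05), beside 12.3% and 14.0% of all genes tested. In knockout cells 11 were higher and 5 lower, beside 9.16% and 11.3% of all genes. The median log2 fold change was 0.03 in control and 0.03 in knockout cells, against 0.01 and 0.01 over all genes. The direction of small changes depended on scaling. With library totals in place of TMM, 15 members were higher and 4 lower in control cells, and over all genes 2831 were higher and 1011 lower, against 1665 and 1885 with TMM. In knockout cells with library totals, 3 members were lower, and over all genes 2288 were higher and 953 lower, against 1237 and 1522 with TMM. The comparisons in knockout and control cells share no library. Of 16 calls in knockout and 18 in control cells, 9 were shared in the same direction (56.2% of the knockout calls and 50% of the control calls) and 0 in opposite directions. Over all genes those shares were 53.4% and 41.5%.

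REEP6 (chr19:1491165-1497926), a protein that shapes tubular membranes, had the largest response. It stood at 5.47 and 6.50 CPM in knockout cells with LY500307, 2.55 and 2.24 CPM in knockout cells with vehicle, 5.70 and 6.06 CPM in control cells with LY500307, and 2.34 and 2.22 CPM in control cells with vehicle. All libraries with the drug were above all libraries without it, and knockout and control cells overlapped within each treatment. The rise was 2.51-fold in knockout cells (log2 1.33, SE 0.18, edgeR adjusted p = 1.41e-06) and 2.57-fold in control cells (log2 1.36, SE 0.19, adjusted p = 1.35e-06). HERPUD1, whose values are given above, rose in steps with drug and with knockout. LY500307 raised it by 0.44 in knockout cells (SE 0.05, edgeR adjusted p = 1.76e-07) and by 0.48 in control cells (SE 0.06, adjusted p = 1.39e-07). These were the only members called in both kinds of cell when tested against a change of at least 1.2-fold. MANF (chr3:51422722-51426828) had 167 and 155 CPM in knockout cells with LY500307, 138 and 132 CPM in knockout cells with vehicle, 158 and 166 CPM in control cells with LY500307, and 123 and 137 CPM in control cells with vehicle. It rose by 0.25 in knockout cells (SE 0.05, edgeR adjusted p = 0.000789) and by 0.31 in control cells (SE 0.05, adjusted p = 5.23e-05). HSPA5 rose by 0.35 in knockout cells (SE 0.04, adjusted p = 2.64e-08) and by 0.17 in control cells (SE 0.04, adjusted p = 0.00125), and its highest values were in knockout cells with LY500307.

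Of the 4 J proteins, 3 rose in knockout cells and 2 in control cells, beside 9.16% and 12.3% of all genes. DNAJB9 rose by 0.41 in knockout cells (SE 0.09, edgeR adjusted p = 0.000750) and was at 0.17 in control cells, which did not pass. DNAJB11 rose by 0.26 in knockout cells. Its value of 0.16 in control cells was a call lost without any 1 of the 4 control libraries (0.15 to 0.18, adjusted p = 0.0816 to 0.131). DNAJC3 was at 0.21 in knockout cells, a call lost without knockout vehicle replicate 2 (0.17, 0.222), without knockout LY500307 replicate 1 (0.10, 0.434) and in DESeq2 (0.20, 0.0660), and at 0.20 in control cells, a call lost without any 1 of the control libraries (0.18 to 0.23, 0.0607 to 0.145). Among sensors and factors, 1 of 4 was called in knockout cells, as higher, and 0 of 4 in control cells. Over all genes 9.16% were higher and 11.3% lower in knockout cells, and 12.3% and 14.0% in control cells. ATF6 was at 0.15 in knockout cells (adjusted p = 0.0413), a call lost without any 1 of the 4 knockout libraries (0.12 to 0.16, adjusted p = 0.0801 to 0.224), without either control LY500307 library (0.14, 0.0539 and 0.14, 0.0544), with DESeq2's test (0.14, 0.0813) or its size factors (0.14, 0.0536), without a filter on low counts (0.14, 0.0544) and in a fit of the groups compared (0.14, 0.0505). ERN1 was at -0.05 in knockout and -0.02 in control cells and EIF2AK3 at 0.08 and -0.03, and none of these passed.

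P4HB, an isomerase that was lower in knockout cells, was also lower with LY500307, by 0.20 in knockout cells (SE 0.04, edgeR adjusted p = 0.000356) and by 0.26 in control cells (SE 0.04, adjusted p = 1.46e-05). OS9 had 162 and 148 CPM in knockout cells with LY500307, 181 and 180.4 CPM in knockout cells with vehicle, 190.2 and 193 CPM in control cells with LY500307, and 199.9 and 203 CPM in control cells with vehicle. It fell by 0.22 in knockout cells (SE 0.05, edgeR adjusted p = 0.00125) and was at -0.07 in control cells, which did not pass. In control cells CALR fell by 0.18, HSP90B1 by 0.20 and SEC61B by 0.27 (edgeR adjusted p = 0.000537, 0.000592 and 0.00102), while their values of -0.05, -0.07 and -0.16 in knockout cells did not pass. SEC61A1 fell by 0.18 in control cells, a call lost with library totals (-0.10, 0.0547). UGGT1 had 181 and 176 CPM in knockout cells with LY500307, 200.1 and 196 CPM in knockout cells with vehicle, 182 and 182 CPM in control cells with LY500307, and 206 and 208 CPM in control cells with vehicle. All libraries with the drug were below all libraries without it. Its change was -0.15 in knockout cells, a call lost without either knockout vehicle library or knockout LY500307 replicate 2 (-0.17 to -0.14, adjusted p = 0.0621 to 0.110) and with library totals (-0.09, 0.137), and -0.18 in control cells, lost with library totals (-0.11, 0.0636). PDIA6 was at -0.11 in both, and its calls were lost without any 1 of the 4 libraries compared, in knockout (-0.13 to -0.10, 0.0551 to 0.217) and in control cells (-0.12 to -0.10, 0.118 to 0.163). The knockout call was also lost without control LY500307 replicate 1 (-0.12, 0.0529), in a fit of the groups compared (-0.12, 0.0663) and with library totals (-0.06, 0.329), and the control call with library totals (-0.04, 0.504).

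Other calls were lost when 1 library was left out. In knockout cells HYOU1 (0.14) was lost without any 1 of the 4 libraries compared (0.12 to 0.17, edgeR adjusted p = 0.0537 to 0.196). ERO1L (0.21) was lost without knockout vehicle replicate 2 (0.15, 0.116), and SEL1L (0.16) without either knockout vehicle library or knockout LY500307 replicate 1 (0.12 to 0.16, 0.105 to 0.202) and in DESeq2 (0.15, 0.0510). CRELD2 had 31.0 and 29.2 CPM in knockout cells with LY500307, 34.5 and 38.7 CPM in knockout cells with vehicle, 33.9 and 33.4 CPM in control cells with LY500307, and 30.0 and 34.7 CPM in control cells with vehicle. Its change of -0.29 in knockout cells was lost without knockout vehicle replicate 2 (-0.20, 0.221) or knockout LY500307 replicate 2 (-0.25, 0.0758). In control cells SYVN1 (0.25) was lost without control vehicle replicate 2 (0.22, 0.0502) or control LY500307 replicate 2 (0.18, 0.108). PDIA4 (-0.14) was lost without control vehicle replicate 1 (-0.13, 0.0728) or control LY500307 replicate 1 (-0.14, 0.0691) and with library totals (-0.07, 0.179). PDIA3 (-0.15) was lost without control vehicle replicate 1 or either control LY500307 library (-0.16 to -0.12, 0.0689 to 0.163) and with library totals (-0.07, 0.248). DERL2 (0.19) and EDEM3 (-0.22) were lost without either control vehicle library or control LY500307 replicate 2 (0.14 to 0.23, 0.0619 to 0.259, and -0.24 to -0.13, 0.0678 to 0.338) and in DESeq2 (0.0591 and 0.0847), and EDEM3 also with library totals (-0.15, 0.152).

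**Figure D4:**
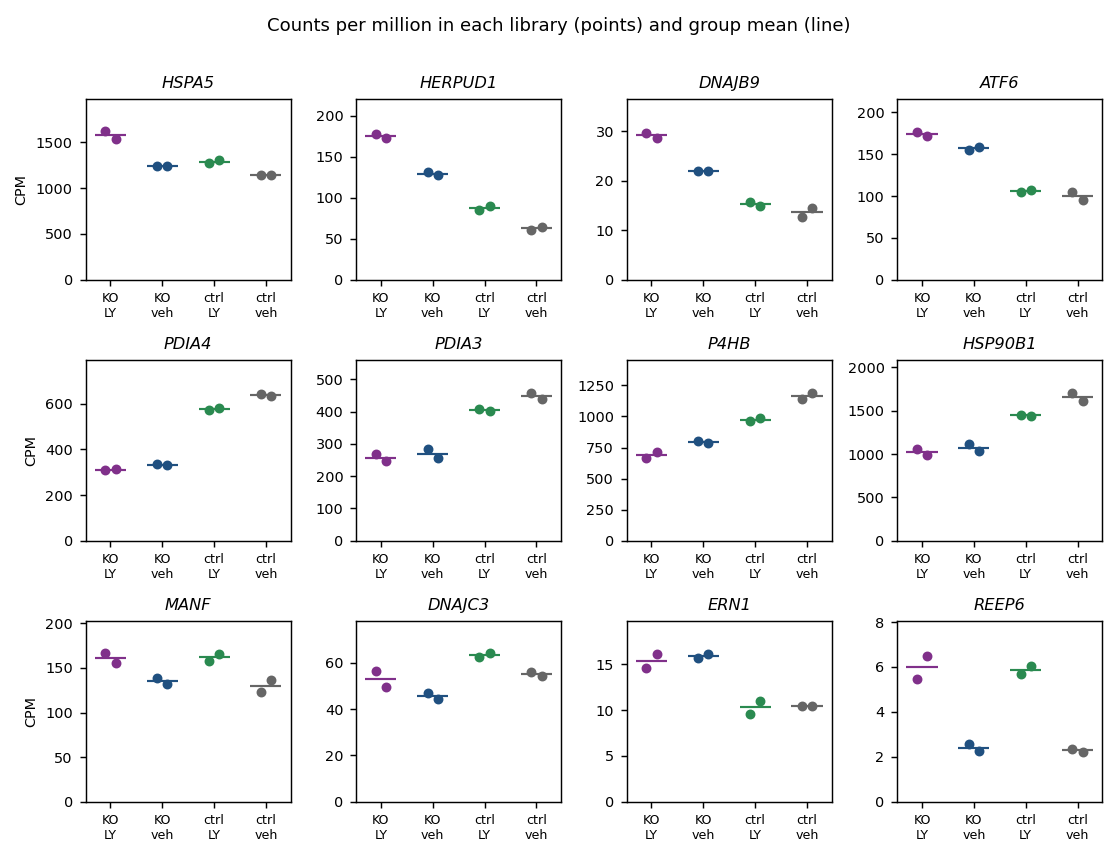
CPM (vertical axes, from 0, scaled per gene) in each library (points) and as group means (lines) for 12 members in knockout cells (KO) and control cells (ctrl) with LY500307 (LY) or vehicle (veh). HERPUD1 and HSPA5 are highest in knockout cells with LY500307, PDIA4 and PDIA3 are low in both knockout groups, and REEP6 separates by drug alone, at 5.47 to 6.50 CPM with it and 2.22 to 2.55 CPM without it.

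In the related lists, whose counts stand beside 9.16% higher and 11.3% lower of all genes in knockout cells and 12.3% and 14.0% in control cells, XBP1 rose with LY500307 by 0.27 in knockout cells (edgeR adjusted p = 0.000202) and by 0.20 in control cells (adjusted p = 0.00324), and DDIT3 rose by 0.32 (adjusted p = 0.00203) and by 0.37 (adjusted p = 0.00135). Of the 12 further factors of the response, 2 rose and 2 fell in knockout cells and 4 rose and 2 fell in control cells, with CREB3L1 at 0.63 and CREB3L4 at 0.50 in control cells. Of the 16 genes downstream of PERK and ATF4, 7 rose and 2 fell in knockout cells, with the smallest p for TRIB3 (0.39) and ASNS (0.34) and the largest rise for CHAC1 (1.45), and 6 rose and 4 fell in control cells, with the smallest p for DDIT4 (0.87) and ATF4 (-0.27). Of 26 further folding genes, 2 rose and 7 fell in knockout and 1 rose and 8 fell in control cells, with QSOX1 at -0.46 and -0.36. Of 23 N-glycosylation genes, 1 rose and 6 fell in knockout and 1 rose and 4 fell in control cells, with GANAB at -0.45 and -0.27. In knockout cells, 3 translocation genes rose and 5 fell, 3 degradation genes rose and 2 fell, 3 vesicle traffic genes rose and 3 fell, and 2 shaping genes rose and 2 fell. In control cells, 4 translocation genes rose and 6 fell, 2 degradation genes rose and 2 fell, 3 vesicle traffic genes rose and 4 fell, and 3 shaping genes rose and 1 fell. Among the shaping genes REEP2, a relative of REEP6, rose by 0.72 in knockout cells and by 0.73 in control cells. With library totals the counts in knockout cells became 5 higher and 1 lower for translocation and 7 and 2 for degradation. They became 10 and 1 downstream of PERK and ATF4, 3 and 4 for further folding, and 3 and 0 for further response factors. N-glycosylation had 3 and 5, vesicle traffic 5 and 3, and shaping 2 and 0. In control cells the counts became 8 higher and 2 lower for N-glycosylation and 8 and 0 for vesicle traffic. They became 6 and 0 for further response factors, 7 and 3 downstream of PERK and ATF4, and 3 and 7 for further folding. Translocation had 6 and 4, degradation 2 and 1, and shaping 4 and 0.

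Whether LY500307 acted differently in knockout and control cells was tested by the interaction in the same fit. By edgeR's quasi-likelihood test 0 of 40 members were higher and 0 lower, beside 0.526% and 1.09% of all genes tested. At an unadjusted p under 0.05 there were 7 members (17.5%) in edgeR, beside 14.4% of all genes tested. In DESeq2, which also called 0, there were 6 (15%), beside 7.21% of all genes. That share is not comparable with the edgeR one, since DESeq2 was run without the filter, on every gene with a count. The smallest p was that of HSPA5, whose response was larger in knockout cells by 0.18 (SE 0.05, adjusted p = 0.0786). It was called without knockout LY500307 replicate 2 (0.20, adjusted p = 0.0420) and, with ERO1L, when replicate numbers entered as a block (0.18, adjusted p = 0.00874). CRELD2 differed by -0.34 (SE 0.12, adjusted p = 0.126).

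Knockout cells with LY500307 were last set against control cells with vehicle, which share these libraries with the comparisons above. Of the 40 members 13 were higher and 14 lower by edgeR, beside 33.1% and 34.8% of all genes tested. With library totals the split over all genes was 5473 higher and 3823 lower, against 4467 and 4702 with TMM, and the median of all genes moved by 0.11. HERPUD1 rose by 1.48 (2.78-fold, SE 0.06, adjusted p = 2.44e-22), REEP6 by 1.39, DNAJB9 by 1.10, ERO1LB by 0.96, ATF6 by 0.79 and HSPA5 by 0.46. PDIA4 fell by 1.03 (fold 0.488, SE 0.04, adjusted p = 9.61e-22), PDIA3 by 0.80, P4HB by 0.75, HSP90B1 by 0.69 and PDIA6 by 0.58. Of the 27 calls, ERO1L (0.12) was lost without control vehicle replicate 2 (0.10, 0.199) or knockout LY500307 replicate 2 (0.10, 0.153) and in DESeq2 (0.12, 0.0522), and EDEM1 (-0.13) without either control vehicle library or knockout LY500307 replicate 1 (-0.13 to -0.12, 0.0715 to 0.0807) and with library totals (-0.02, 0.676). DERL2 (-0.25) was lost with library totals (-0.14, 0.0676). With arm medians removed, MANF (0.0086, adjusted p = 0.901), SEL1L (0.0099, 0.882), DERL2 (-0.08, 0.285) and DNAJC10 (-0.014, 0.811) were lost, and ERO1L turned to -0.19 (0.00136). Calls that held moved by over 1.5 times to -0.74 for CALR, -0.22 for CANX, -0.58 for UGGT1, -0.13 for DERL1, -0.43 for EDEM1 and -0.34 for CREB3L2.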

How the data were processed

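Per the submitters' processing notes, the authors used bcl2fastq, TopHat2 2.0.8b and HTSeq on hg19, and deposited whole-number read counts per gene symbol. The labels mention an mRNA kit that marks strand as well as a guide for total RNA, with single-end reads, and no source used here gives the strand setting of the counting. Multi-mapping reads, at 46.6 to 52.8 alignments per 100 unique ones, were not counted. Reads of duplicates were pooled at some step, per the series text, but a file was deposited for each library, and duplicates were further apart than counting error allows (chi-square over its degrees of freedom 3.05 to 4.30). Reads that fell in no counted feature made up 10.7% to 12.8% and ambiguous reads 0.811% to 0.861%, and both were left out of library sizes. Sample columns left unused numbered 0.

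Counts were analyzed with edgeR 4.0.16 (limma 3.58.1, R 4.3.3). filterByExpr kept 13498 genes, TMM scaled the libraries, and 1 quasi-likelihood fit with a mean per group was used. It had 4 residual degrees of freedom and 30.1 prior ones, which are borrowed across genes. The coefficient of variation that edgeR calls biological was 3.95%, and here it may be technical. Tests were two-sided, with p adjusted by Benjamini-Hochberg across all genes and called under 0.05. SE is the standard error of a log2 fold change. Alternatives were DESeq2 1.42.0, other scalings, no filter, the groups compared alone, a replicate block, a test against a 1.2-fold change and each library left out. Members and lists were chosen with earlier results of these data known. Genes with values in each library were HSPA5, ATF6, ERN1, EIF2AK3, REEP6, and per comparison up to 5 members with the smallest p in each direction, and of each other list up to 2 genes by smallest p beside XBP1, DDIT3 and ATF4. CREBRF, VIMP and LNP of those lists were not found. Same-numbered libraries did not deviate together (correlations of 0.00061 to 0.070).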

Additional observations from a re-analysis of the deposited data

Results flagged for a closer look

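No group had enough libraries for a search for outlying samples. The response to LY500307 differed between knockout and control cells, by the interaction test in edgeR, for 4 genes of the related lists and for 0 of the 40 members. CHAC1 had 2.14 and 1.89 CPM in knockout cells with LY500307, 0.810 and 0.669 CPM in knockout cells with vehicle, 7.41 and 7.13 CPM in control cells with LY500307, and 6.86 and 7.93 CPM in control cells with vehicle. Its response was 1.45 in knockout and -0.02 in control cells, a difference of 1.47 (SE 0.31, adjusted p = 0.00705), which was lost without knockout vehicle replicate 2 (adjusted p = 0.0972). PRKCSH, the beta subunit of glucosidase II, had 388 and 387 CPM in knockout cells with LY500307, 488 and 497 CPM in knockout cells with vehicle, 383 and 393 CPM in control cells with LY500307, and 391 and 383 CPM in control cells with vehicle. Its response was -0.35 in knockout and 0.0043 in control cells, a difference of -0.35 (SE 0.06, adjusted p = 0.000445) that was called under all 13 alternatives run other than the 1.2-fold test (adjusted p up to 0.00793). ATF4 differed by 0.25, with -0.02 in knockout and -0.27 in control cells (adjusted p = 0.0324), and was lost without any 1 library other than knockout LY500307 replicate 2 (adjusted p up to 0.144). SIL1, an exchange factor of HSPA5, differed by -0.41, with -0.24 in knockout and 0.17 in control cells (adjusted p = 0.0338), and was lost without any 1 library other than knockout vehicle replicate 1 and knockout LY500307 replicate 1 (adjusted p up to 0.220).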

How the results depend on the processing

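Of 119 calls of members over the 5 pairs of groups, 86 held under every alternative other than the 1.2-fold test and the removal of arm medians, 89 held without any 1 library, and 54 held under the 1.2-fold test too. DESeq2 kept 110, its size factors 118, library totals 106, no filter 118, a fit of the groups compared 117 and the replicate block 119. Same-numbered libraries share a number only. With that block, 8 members were lower with LY500307 in knockout cells and 2 were called in the interaction. Against a 1.2-fold change, knockout with vehicle kept 6 higher and 10 lower, knockout with LY500307 6 and 8, LY500307 in knockout cells 2 and 0, and LY500307 in control cells 2 and 0. Library totals gave 15 higher and 4 lower for LY500307 in control cells and 3 lower in knockout cells. With arm medians removed, chosen after seeing the data, knockout with vehicle kept 7 higher. Without 1 library, knockout with vehicle had 9 to 13 higher and 15 to 17 lower, knockout with LY500307 10 to 12 and 15 to 17, LY500307 in knockout cells 6 to 11 and 2 to 5, LY500307 in control cells 4 to 9 and 6 to 10, both factors 12 to 13 and 13 to 15, and the interaction 0 to 1 and 0 to 0. For LY500307 in control cells the higher calls were 5 without control vehicle replicate 1, 4 without replicate 2 and 5 without control LY500307 replicate 2, and the lower calls 6 without control vehicle replicate 1. In knockout cells they were 6 and 2 without knockout vehicle replicate 2, 7 higher without knockout LY500307 replicate 1 and 2 lower without its replicate 2. Direction turned with arm medians removed for DNAJC3 (0.12 with vehicle, 0.11 with LY500307), DNAJC10 (-0.0035 with vehicle, -0.014 for both factors), SEL1L (-0.13 and -0.12), ERO1L (-0.18 with LY500307, -0.19 for both factors) and the uncalled REEP6 (-0.25 and -0.28). Other turns were of uncalled values near 0. Without 1 library, REEP6 ran from -0.026 (without knockout vehicle replicate 1) to 0.16 with vehicle, and from -0.11 (without knockout LY500307 replicate 2, and -0.018 without control LY500307 replicate 1) to 0.13 with LY500307. ERN1 with LY500307 turned to 0.0087 in knockout and 0.054 in control cells with library totals, 0.0053 without knockout LY500307 replicate 1 and 0.077 without control LY500307 replicate 1, and EIF2AK3 to 0.042 in control cells with library totals. The cause of these changes was not tested. With 2 libraries per group, a lone library left by leaving out its duplicate was assumed to vary like the other groups. Genes at a few CPM, such as REEP6 and DERL3, carried the widest errors.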
